A study of Homo sapiens with 9 samples.

Results

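The genes described here encode the proteins of the mitochondrial ribosome, measured by RNA sequencing in interferon-treated SUIT2 cells. They were taken as the protein-coding genes whose symbol starts with MRPL or MRPS followed by a digit and whose mean over the 9 libraries was at least 5 CPM (counts scaled to a common library total). All 78 such symbols of the 59609 genes in the table passed that level, and all 78 were among the 16964 genes tested. The rule used the overall level and no difference between groups. No symbol fell below the limit of 5 CPM: the member nearest to it was MRPS31, at a mean of 12.7 CPM.

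The mitochondrial ribosome translates the few messenger RNAs of the mitochondrial genome, which encode core subunits of the respiratory chain and of the ATP synthase. Its ribosomal RNAs are transcribed inside the organelle, whereas every one of its proteins is encoded in the nucleus, made in the cytosol and imported. Some of these proteins descend from bacterial ribosomal proteins and others have no bacterial counterpart; assembly needs GTPases, RNA-modifying enzymes and helicases.

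SUIT2 is an established human pancreatic cancer cell line. The 9 libraries formed 3 groups of 3: cells labelled control treated, cells given 100 U/mL of interferon beta, a type I interferon, for 6 h, and cells given the same dose for 24 h. The labels give no time for the controls, carry the same interferon protocol text on every sample, and name no genetic change in any group; groups were taken from the titles. Whether the 3 libraries of a group came from different cultures is not in the labels, and the p-values therefore cover the spread among these libraries, which could be technical alone.

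The control libraries held 15101734 to 19632741 estimated counts, the 6 h libraries 16799278 to 37420457 and the 24 h libraries 25270387 to 40384407, and the member with the fewest had at least 170 counts in each library. The epithelial markers of the labelled carcinoma line were present, KRT8 at 2542 to 3278 CPM and EPCAM at 136 to 212 CPM, and PTPRC and CD3E (leukocytes), DCN (fibroblasts) and CPA1 (acinar cells) were at 0 in all 9 libraries. Of the leukocyte list LYZ stood at 224 to 340 CPM and carried nearly all of its summed level, which ran from 225 to 229 CPM in the controls, from 254 to 268 CPM in the 6 h libraries and from 318 to 341 CPM in the 24 h libraries; its part in the results was not tested. In bulk RNA a change in the number of cells of a kind and a change in RNA per cell cannot be told apart.

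By role, 26 of the 78 genes encode proteins of the small subunit and 51 proteins of the large subunit. MRPS30 and MRPS18A, despite their symbols, are counted with the large subunit, where their proteins sit. MRPS36 was counted with neither, because its product is now placed in the 2-oxoglutarate dehydrogenase complex. Of the 77 ribosomal proteins, 46 have a bacterial counterpart and 31 are specific to mitochondria.

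Levels are compared between genes as CPM per kilobase of exon, with exon lengths from GENCODE 29. A gene's length joins all its annotated exons, 6432 bases for MRPL46 and 16393 for MRPL42, and can exceed that of its messenger RNA. Low levels per kilobase are uncertain for that reason. On that scale the mean level ran from 3.13 (MRPL46) to 113 (MRPL12), with a median of 15.8 over the 78 genes. MRPL12, whose product forms the flexible stalk that recruits translation factors, was followed by MRPS34 at 76.7, MRPL51 at 75.8, MRPL15 at 73.1 and MRPL37 at 52.8. The small subunit's median was 16.4 and the large subunit's 15.6, and genes with a bacterial counterpart stood at 16.0 against 15.7 for mitochondria-specific ones. Without the correction for length the span was narrower, from 12.7 CPM (MRPS31) to 141 CPM (MRPS6).

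MRPS6, the member with the most reads, stood at 136, 140 and 131 CPM in control, 152, 149 and 144 CPM at 6 h and 149, 141 and 127 CPM at 24 h. Its 6 h libraries lay above the controls and its 24 h libraries overlapped them. No comparison of MRPS6 passed the test (log2 fold change 0.13 at 6 h, edgeR adjusted p = 0.0729). The gene holds the nested gene SLC5A3 on the same strand, which was as abundant (147 CPM) and had a log2 fold change of 0.46 at 24 h, so the assignment of reads in their shared region is uncertain.

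Taken as a sum, the 78 genes changed little. Their summed level was 3988, 3979 and 3974 CPM in the control libraries, 4043, 4126 and 3968 CPM at 6 h and 3853, 3853 and 3888 CPM at 24 h. The 24 h sums lay below all the controls by a few percent, and the 6 h sums overlapped them. As a share of all counted reads the genes took between 0.403% and 0.404% in the controls, between 0.365% and 0.381% in the 6 h libraries and between 0.411% and 0.418% in the 24 h libraries. This share put 24 h above control and 6 h below it, the opposite order to the scaled sums: the TMM factors, which scale libraries to a common composition, lay between 1.01 and 1.02 for the controls, between 0.918 and 0.924 for 6 h and between 1.07 and 1.08 for 24 h.

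Single genes moved by small amounts and in both directions. At 6 h 14 of the 78 genes (17.9%) passed the test, 9 higher and 5 lower, where 32.9% of all tested genes were called, 17.5% higher and 15.4% lower. At 24 h 35 genes (44.9%) passed, 17 higher and 18 lower, beside 50.0% of all genes, 24.7% higher and 25.3% lower. The direct comparison of 24 h with 6 h called 39 genes, 14 higher and 25 lower at the later time, beside 57.2% of all genes, 26.6% higher and 30.6% lower. The members' median log2 fold change was 0.025 at 6 h, -0.027 at 24 h and -0.038 between the times, against -0.0053, 0.0048 and -0.019 over all genes. Both treated times were set against the same 3 control libraries.

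With edgeR and TMM factors none of the 78 genes changed by 1.5-fold or more in any of the 3 comparisons. Among all genes tested 12.7% did so at 6 h, 17.9% at 24 h and 21.5% between the times. Among the 7276 protein-coding genes within the members' own range of CPM the shares were 6.56%, 8.71% and 11.9%. The median size of change, whatever its sign, was 0.072 log2 units at 6 h and 0.107 at 24 h for the members, 0.116 and 0.176 for those protein-coding genes, and 0.161 and 0.234 for all genes.

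**Figure D1:**
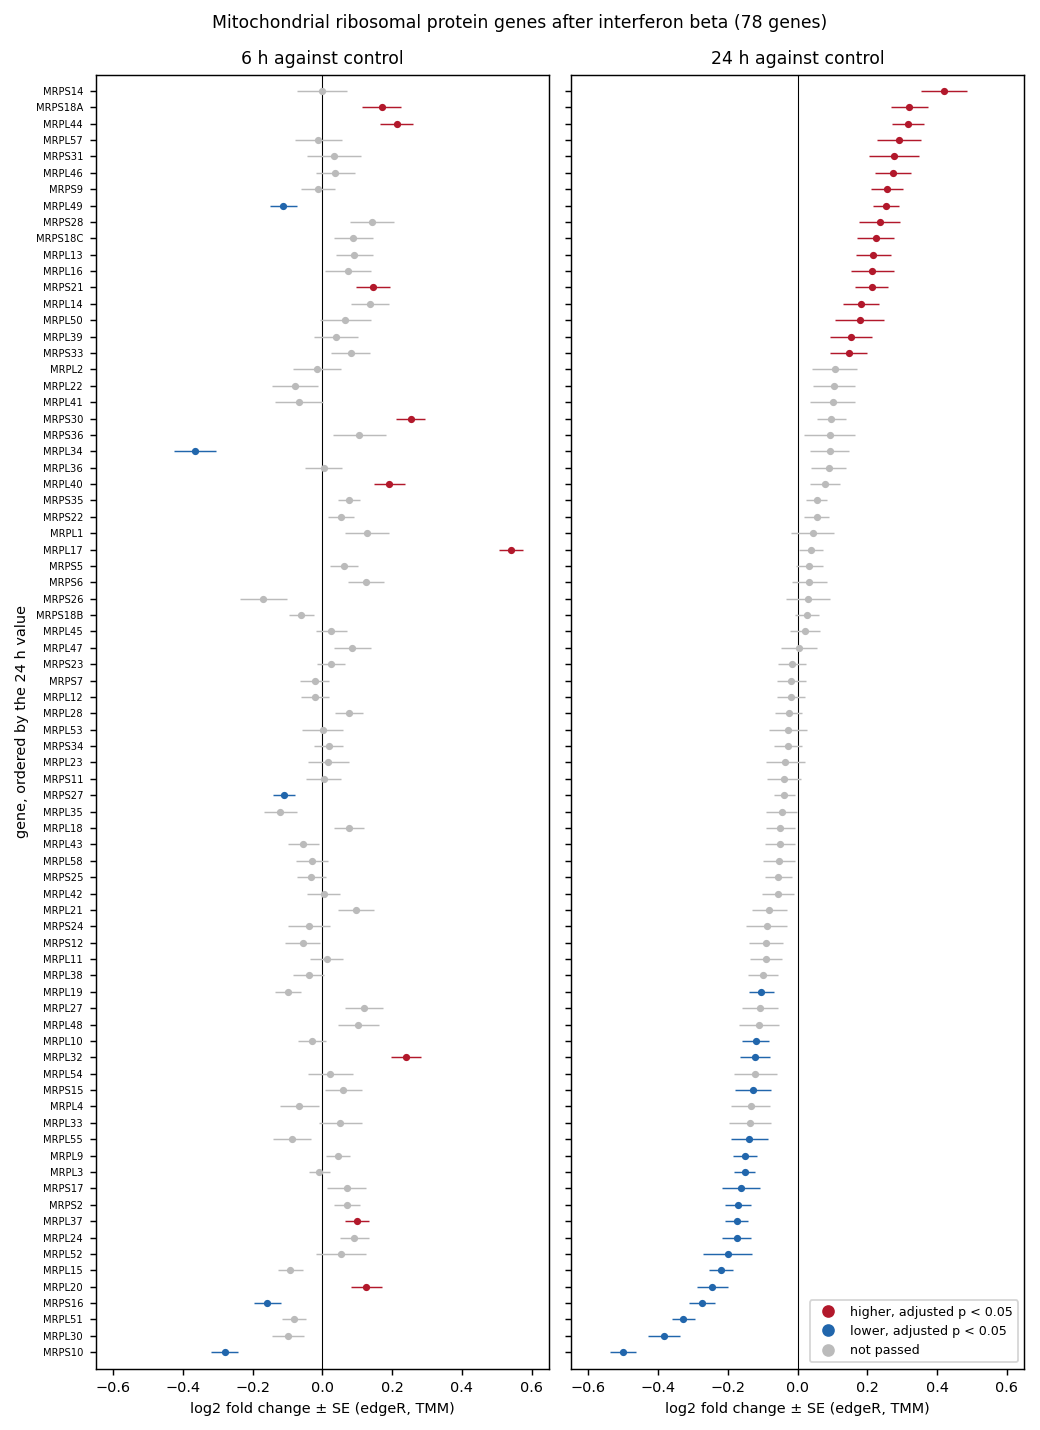
Log2 fold change ± SE (horizontal axis, edgeR with TMM factors) of each of the 78 genes at 6 h (left) and 24 h (right) against control, ordered by the 24 h value; red marks genes higher and blue genes lower at an adjusted p under 0.05, grey genes that did not pass. The values run from -0.37 (MRPL34) to 0.54 (MRPL17) at 6 h and from -0.50 (MRPS10) to 0.42 (MRPS14) at 24 h.

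How many genes were called in each direction depended on the scaling. With library size alone the median of all genes moved to -0.145 at 6 h, 0.0821 at 24 h and 0.198 between the times. The members' calls became 2 higher and 33 lower, 29 higher and 9 lower, and 57 higher and 3 lower. These were 44.9%, 48.7% and 76.9% of the members, beside 46.3%, 50.6% and 63.1% of all genes called. In the authors' deposited normalized table the medians of all genes were 0.134, 0.371 and 0.215 (log2 of the value plus 1). The members' calls there were 1 higher and 0 lower at 6 h, 49 higher and 0 lower at 24 h, and 13 higher and 0 lower between the times. These were 1.28%, 62.8% and 16.7% of the members, beside 10.8%, 52.4% and 34.5% of all genes called. At an unadjusted p under 0.05 limma on that table gave 5 higher and 0 lower at 6 h, 56 and 0 at 24 h, and 25 and 0 between the times. Changes below are therefore relative to the typical gene. The members' median minus that of all genes lay between -0.044 and 0.053 over the 22 settings run. With library size alone and in the deposited table, all 35 values of members named below as the largest changes kept their direction relative to that median. Both settings change the scaling by a factor for each library, which shifts all genes nearly alike. The agreement was therefore largely fixed in advance and is no separate support.

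**Figure D2:**
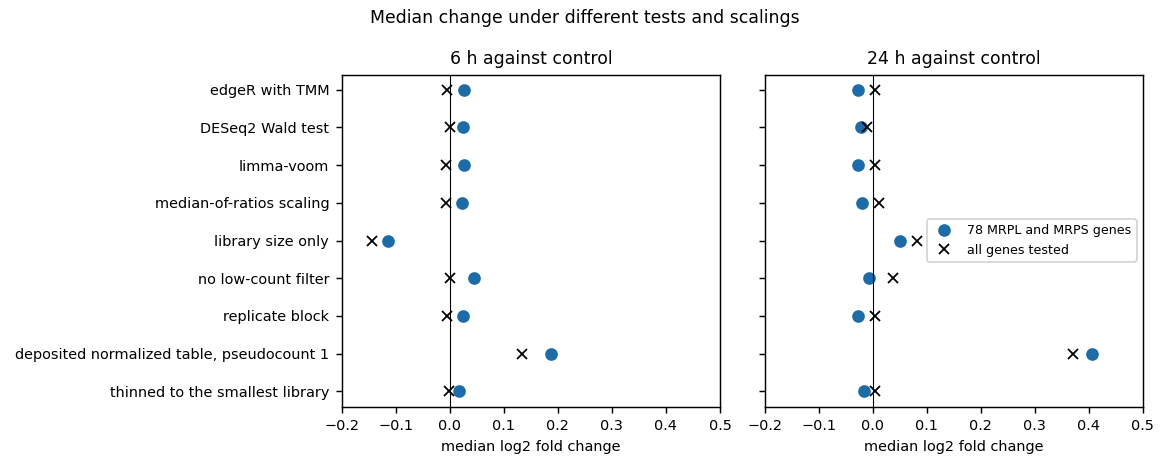
Median log2 fold change (horizontal axis) of the 78 genes (blue points) and of all genes tested (crosses) at 6 h and 24 h against control, one line for each test or scaling. The crosses and points move together: with the deposited normalized table both lie near 0.4 at 24 h, and with edgeR and TMM factors both lie near 0.

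The first comparison, 6 h against control, shows what differed early. MRPL17, a large-subunit protein with a bacterial counterpart that lies near the exit of the peptide tunnel, had the largest difference of the set. It stood at 53.7, 53.4 and 52.2 CPM in control, 77.5, 78.3 and 76.3 CPM at 6 h and 54.3, 54.3 and 54.9 CPM at 24 h. The 6 h libraries lay far above both other groups, and the 24 h libraries lay just above the controls. The log2 fold change at 6 h was 0.54 ± 0.035 (SE), 1.46-fold (edgeR adjusted p = 5.42e-09), at 24 h 0.04 (adjusted p = 0.399), and 24 h stood lower than 6 h by -0.50 (adjusted p = 2.52e-09). The 6 h call was kept in 20 of 20 other settings.

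The promoter of MRPL17 is shown as that of the largest difference. It was searched for GCGCATGCG, letters of sites bound by NRF1, a regulator of nuclear genes for mitochondrial proteins; these and all other motif letters here were chosen after the values had been seen, and both strands of each window were read. The letters stood at 43 to 35 bases before the RefSeq start and, on both strands with overlap, at 81 to 72 bases before it. Of the 69 members with an entry in the promoter table, MRPL17, MRPL22 and MRPS18C held them (4.35%), against 2.1% of all 27305 promoter windows of the same 300 bases and 3.74% of those of tested genes. The 250 bases before the start are chr11:6683341-6683590 on the minus strand (RefSeq, GRCh38.p14), with the letters in capitals. The gene itself is at chr11:6680385-6683341 in the deposited table.
MRPL17: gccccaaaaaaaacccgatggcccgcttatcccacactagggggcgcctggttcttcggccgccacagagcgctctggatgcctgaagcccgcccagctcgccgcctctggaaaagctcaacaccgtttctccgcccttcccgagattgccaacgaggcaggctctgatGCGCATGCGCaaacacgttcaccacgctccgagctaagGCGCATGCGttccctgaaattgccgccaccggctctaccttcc
A match of letters is a description of the sequence, not a measured site; the level of NRF1 itself is given below.

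The other rises at 6 h were smaller. MRPS30, a mitochondria-specific protein of the large subunit, stood at 55.0 ± 3.06 CPM in control and 65.5 ± 0.61 CPM at 6 h (SD, n = 3), groups that did not overlap (log2 fold change 0.25 ± 0.043, edgeR adjusted p = 0.000251). MRPL32 stood at 37.8, 37.6 and 37.8 CPM in control, 44.0, 43.1 and 46.2 CPM at 6 h and 35.3, 33.5 and 35.1 CPM at 24 h. Its protein is trimmed by a protease of the inner membrane after import, a step known to control assembly of the ribosome. MRPL32 was above control at 6 h (0.24 ± 0.044, adjusted p = 0.000551) and below it at 24 h (-0.12, adjusted p = 0.0294), with no overlap of the 3 groups. The 24 h call was lost in 11 of 20 other settings, DESeq2 and library size alone among them, and its sign turned in the deposited normalized table. MRPL44, a mitochondria-specific protein with an RNase III-like fold, and MRPL40 rose by 0.21 and 0.19, MRPS18A by 0.17, MRPS21 by 0.15, MRPL20 by 0.13 and MRPL37 by 0.10. MRPL40 lies opposite HIRA (129 CPM, log2 fold change 0.82 at 6 h) over its whole length, and as the labels do not state whether counting used strand, reads of the pair cannot be told apart.

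At 6 h the lowest value was that of MRPL34, a small protein of the large subunit with a bacterial counterpart. It stood at 23.2, 22.4 and 24.3 CPM in control, 17.7, 19.3 and 17.2 CPM at 6 h and 24.6, 24.3 and 25.2 CPM at 24 h, so that only the 6 h libraries were low. The log2 fold change was -0.37 ± 0.060 at 6 h (edgeR adjusted p = 0.000191) and 0.09 at 24 h (adjusted p = 0.184). The opposite-strand gene ABHD8 (14.0 CPM) overlaps nearly the whole of MRPL34 and had log2 fold changes of -0.39 and 0.69, so reads of the pair are uncertain. MRPS16 (-0.16), MRPL49 (-0.11) and MRPS27 (-0.11), a small-subunit protein of the pentatricopeptide repeat family, were the other falls beside MRPS10. Groups did not overlap for 31 of the 78 members, called or not, beside 42.1% of all genes. Of the 9 higher and 5 lower genes 8 and 5 had such groups, which is no separate support, as the calls rest on the same libraries.

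MRPS10, a small-subunit protein of the head domain with a bacterial counterpart, was lower at both times and had the largest fall at 24 h. It stood at 96.8, 91.9 and 92.1 CPM in control, 77.4, 77.6 and 76.3 CPM at 6 h and 66.6, 68.7 and 63.3 CPM at 24 h. The 3 groups did not overlap and were ordered control, 6 h, 24 h. The log2 fold change was -0.28 ± 0.039 at 6 h (edgeR adjusted p = 3.62e-05) and -0.50 ± 0.038 at 24 h (adjusted p = 2.67e-08), and 24 h stood below 6 h by -0.22 (adjusted p = 0.000125). In the deposited normalized table the 24 h value was -0.06 and did not pass, and relative to the median of all genes there it was -0.43. MRPS16, the other gene lower at both times, stood at 99.5, 99.4 and 96.6 CPM in control, 89.0, 89.7 and 86.5 CPM at 6 h and 78.5, 80.5 and 85.4 CPM at 24 h, with log2 fold changes of -0.16 and -0.27 (adjusted p = 0.0047 and 1.77e-05).

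MRPS18A moved the other way. Its protein is one of 3 related S18-type proteins and is built into the large subunit. It stood at 25.2, 26.9 and 25.6 CPM in control, 27.8, 31.3 and 28.4 CPM at 6 h and 32.9, 31.6 and 32.5 CPM at 24 h, groups that did not overlap. The log2 fold change was 0.17 ± 0.056 at 6 h (edgeR adjusted p = 0.0286) and 0.32 ± 0.053 at 24 h (adjusted p = 0.000115), and the difference between the times was 0.15 (adjusted p = 0.0169). The 6 h call was lost in 8 of 20 other settings, the 24 h call in none. The paralogue MRPS18C rose at 24 h (0.22, adjusted p = 0.00262) and MRPS18B did not pass against control (-0.06 and 0.03).

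MRPS10 and MRPS18A both lie on chromosome 6 and moved in opposite directions, so their promoters are set side by side. Both held CCGGAAG, the core letters of sites bound by GABPA and other ETS factors, at 22 to 16 bases before the start of MRPS10 and 31 to 25 bases before that of MRPS18A. Both also held AAGATGGCG, letters of YY1 sites, at 10 to 18 bases after the start. The 250 bases before each start are chr6:42217862-42218111 and chr6:43687792-43688041, both on the minus strand (RefSeq, GRCh38.p14), with CCGGAAG in capitals.
MRPS10: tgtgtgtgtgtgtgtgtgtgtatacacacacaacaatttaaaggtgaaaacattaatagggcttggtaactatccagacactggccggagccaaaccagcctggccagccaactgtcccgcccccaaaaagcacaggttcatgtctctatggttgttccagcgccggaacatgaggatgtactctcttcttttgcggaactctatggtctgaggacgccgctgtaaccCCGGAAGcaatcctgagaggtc
MRPS18A: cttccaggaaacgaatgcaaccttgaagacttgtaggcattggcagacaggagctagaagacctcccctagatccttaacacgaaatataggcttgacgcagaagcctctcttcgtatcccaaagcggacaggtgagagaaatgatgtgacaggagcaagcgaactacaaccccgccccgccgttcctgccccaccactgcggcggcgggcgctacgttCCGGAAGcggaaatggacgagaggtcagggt
The deposited gene spans are chr6:42206807-42217862 and chr6:43671303-43687792.

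Over the 69 matched members, 29 (42.0%) held CCGGAAG on either strand of the 300-base window, against 10.7% of all promoters and 19.4% of the promoters of tested genes. AAGATGGCG stood in 13 members (18.8%), against 1.85% of all promoters and 3.93% of those of tested genes. CACGTG, the E-box that MYC binds among other factors, stood in 6 (8.7%, against 7.43% of all and 10.1% of those of tested genes), and GAAANNGAA, letters of the interferon-stimulated response element, in 7 (10.1%, against 8.29% of all and 6.59% of those of tested genes). No match of one of these motifs overlapped a match of another in the members' windows. The members' windows had 61.5% G and C on average, against 57.2% in all windows. Members with CCGGAAG had a median log2 fold change of 0.03 at 6 h and -0.05 at 24 h, and the others 0.02 and 0.02; among those 29 genes 4 rose and 2 fell at 6 h, and 6 rose and 7 fell at 24 h. The 7 genes with the interferon-response letters (MRPL3, MRPL36, MRPL39, MRPL50, MRPL52, MRPS18B and MRPS33) had a median of 0.04 at 6 h and 0.09 at 24 h. The other matched members had 0.03 and -0.03. Of the 7, 0 were called at 6 h, and at 24 h 3 rose and 2 fell. Among all 78 members 11.5% rose and 6.41% fell at 6 h, and 21.8% and 23.1% at 24 h. Differences between members with and without a motif were not tested. MRPL10, MRPL13, MRPL15, MRPL2, MRPL21, MRPL23, MRPL35, MRPS28 and MRPS36 had no entry in the promoter table, and for genes with several entries the first was used.

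**Figure D3:**
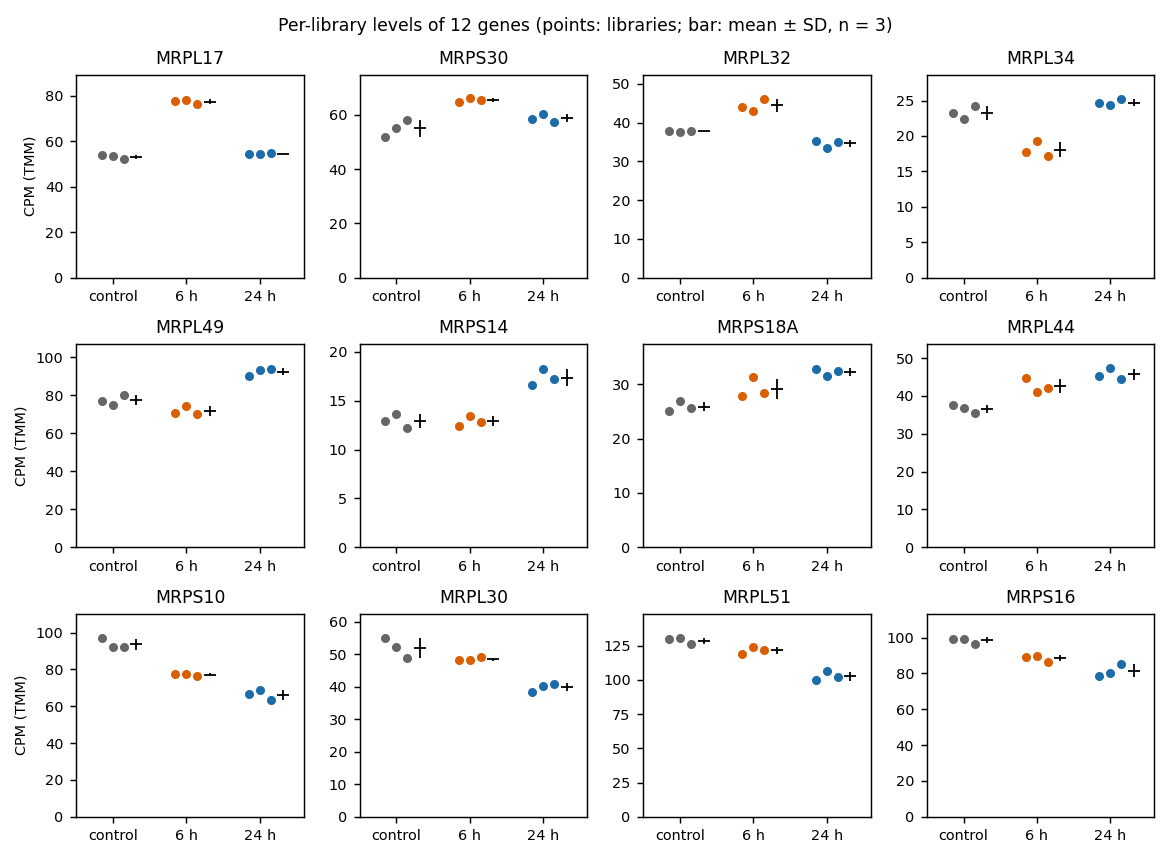
CPM with TMM factors (vertical axis, from 0) of 12 of the genes with the largest changes in each of the 9 libraries (points), with the mean ± SD (n = 3) beside each group. MRPL17 and MRPL34 stand apart at 6 h alone, MRPS14 at 24 h alone, and MRPS10 falls from 93.6 CPM in control to 77.1 CPM at 6 h and 66.2 CPM at 24 h.

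The second comparison, 24 h against control, shows what differed later. The largest rise was in MRPS14, a small-subunit protein with a bacterial counterpart, which stood at 12.9, 13.6 and 12.2 CPM in control, 12.4, 13.4 and 12.8 CPM at 6 h and 16.6, 18.3 and 17.2 CPM at 24 h. Only the 24 h libraries were high, and the 6 h libraries overlapped the controls. The log2 fold change was 0.42 ± 0.067 at 24 h (edgeR adjusted p = 8.39e-05) and 0.00 at 6 h (adjusted p = 0.994), and the 24 h call was kept in 20 of 20 other settings. CACYBP, on the opposite strand, overlaps the gene by 1239 bases, is far more abundant (171 CPM) and moved the other way (0.17 and -0.17). The promoter of MRPS14, shown as that of the largest late rise, held none of the motifs searched. Its 250 bases before the start are chr1:175023426-175023675 on the minus strand (RefSeq, GRCh38.p14), the deposited gene span being chr1:175010789-175023426.
MRPS14: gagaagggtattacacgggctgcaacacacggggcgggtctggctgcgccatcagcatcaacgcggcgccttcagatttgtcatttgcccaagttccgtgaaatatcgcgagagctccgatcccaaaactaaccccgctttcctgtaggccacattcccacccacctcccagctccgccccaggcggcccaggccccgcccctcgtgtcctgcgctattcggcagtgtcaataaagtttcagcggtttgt
No letters are in capitals here.

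Behind MRPS14 and MRPS18A came 4 mitochondria-specific proteins. MRPL44 stood at 37.6, 36.7 and 35.5 CPM in control, 44.7, 40.9 and 42.2 CPM at 6 h and 45.1, 47.3 and 44.6 CPM at 24 h, above control at both times (0.21 and 0.32, edgeR adjusted p = 0.00276 and 3.21e-05). MRPL57 stood at 27.7, 25.6 and 28.4 CPM in control and 34.1, 31.6 and 33.8 CPM at 24 h (0.29 ± 0.063, adjusted p = 0.00124). MRPS31 (0.28) and MRPL46 (0.27), the members with the fewest reads and with the lowest level per kilobase, also rose; MRPS31 has pseudogene copies that were also read. In all 4 genes the 24 h libraries lay above every control.

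MRPS9, a small-subunit protein with a bacterial counterpart, rose at 24 h by 0.26, and its 24 h value stood above 6 h by 0.27 (edgeR adjusted p = 8.13e-05). MRPL49 was 77.2, 75.1 and 80.4 CPM in control, 70.5, 74.5 and 70.1 CPM at 6 h and 90.3, 93.1 and 93.8 CPM at 24 h. It was the only gene called lower at 6 h (-0.11, adjusted p = 0.0411) and higher at 24 h (0.25, adjusted p = 4.23e-05), but the 6 h call was lost in 13 of 20 other settings and the 24 h call in none. SYVN1, on the opposite strand, spans MRPL49 (49.2 CPM, log2 fold changes 0.13 and 0.00). The remaining rises at 24 h, MRPS28, MRPS18C, MRPL13, MRPL16, MRPS21, MRPL14, MRPL50, MRPL39 and MRPS33, lay between 0.15 and 0.23.

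Among the falls at 24 h, MRPL30 stood at 54.9, 52.2 and 48.9 CPM in control, 48.3, 48.2 and 49.1 CPM at 6 h and 38.5, 40.4 and 41.0 CPM at 24 h. The 24 h libraries lay below both other groups (-0.38 ± 0.045, edgeR adjusted p = 4.06e-06). MRPL51 stood at 130, 130 and 126 CPM in control and 99.9, 106 and 102 CPM at 24 h (-0.33 ± 0.033, adjusted p = 7.01e-07). The more abundant gene NCAPD2 (339 CPM) overlaps MRPL51 by 486 bases on the other strand and had log2 fold changes of -0.21 and -0.31; reads of the pair cannot be told apart there. MRPS16 (-0.27), given above, MRPL20 (-0.24), a protein needed early in assembly of the bacterial large subunit, and MRPL15 (-0.22) followed, and the other falls lay between -0.20 and -0.10.

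Some genes were called one way at 6 h and the other way at 24 h. MRPL20, MRPL32 and MRPL37 were higher at 6 h and lower at 24 h. MRPL20 stood at 92.0, 86.3 and 84.0 CPM in control, 97.9, 98.5 and 90.7 CPM at 6 h and 72.3, 72.9 and 76.2 CPM at 24 h, with overlap between control and 6 h; MRPL37 went from 136 ± 4.58 CPM (SD, n = 3) to 146 ± 3.71 and 121 ± 1.06 CPM. With library size alone their 6 h values were -0.014 (MRPL20) and -0.04 (MRPL37), below 0. The 6 h call was lost in 10 of 20 other settings for MRPL20, with DESeq2, limma-voom and the replicate block among them, and in 9 of 20 for MRPL37, with the replicate block among them. In the deposited normalized table the 24 h values of all 3 genes were above 0. MRPL44, MRPS18A and MRPS21 were higher at both times, MRPS10 and MRPS16 lower at both, and 27 of the 78 genes passed in none of the 3 comparisons. How many of all tested genes had each pattern of calls over the times was not counted, so these counts have no background.

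Between the 2 treated times, compared with each other and not with the controls, 14 genes stood higher at 24 h and 25 lower. MRPL34 (0.46), MRPS14 (0.42), MRPL49 (0.37), MRPL57 (0.30), MRPS9 (0.27) and MRPS31 (0.24) led the first group. MRPL17 (-0.50), MRPL20 (-0.37), MRPL32 (-0.36), MRPL30 (-0.28), MRPL37 (-0.27) and MRPL24 (-0.27) led the second. All 12 passed with an edgeR adjusted p of at most 0.0071. Between the times groups did not overlap for 40 of the 78 members, called or not, beside 62.2% of all genes, and at 24 h against control for 47 of the 78, beside 60.0%. Among the called members the counts were 13 of 14 and 24 of 25 between the times, and 16 of 17 and 16 of 18 at 24 h. Calls rest on the same libraries, so these counts are no separate support. The share among all called genes was not counted.

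Split by subunit, 1 gene of the small subunit rose and 3 fell at 6 h, and 8 of the large subunit rose and 2 fell. At 24 h 7 rose and 5 fell among the 26 genes of the small subunit (median 0.0051), and 10 rose and 13 fell among the 51 of the large subunit (median -0.046). From 6 h to 24 h the large subunit had 8 higher and 20 lower, the small subunit 6 and 5. Split by origin, 4 of the 46 genes with a bacterial counterpart rose and 3 fell at 6 h, and 5 and 2 of the 31 mitochondria-specific genes. At 24 h the genes with a bacterial counterpart had 8 higher (17.4%) and 15 lower (32.6%), with a median of -0.048. The mitochondria-specific genes had 9 higher (29%) and 3 lower (9.68%), with a median of 0.027. With library size alone these 24 h splits were 14 and 7 against 15 and 2, where 5500 of all 16964 genes were higher and 3078 lower. Differences between these subgroups were not tested. Over all genes tested, edgeR with TMM factors called 17.5% higher and 15.4% lower at 6 h and 24.7% and 25.3% at 24 h. Between the times the shares were 26.6% and 30.6%. At 24 h the small subunit's shares, 26.9% and 19.2%, and the large subunit's, 19.6% and 25.5%, lay near those of all genes. The shares of all genes are also the background for the counts of the gene lists below.

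Members with higher levels tended to have lower values at 24 h. Across the 78 genes Spearman's rho between mean CPM and log2 fold change was -0.42 at 24 h and -0.11 at 6 h, and over all 16964 genes it was -0.19 and 0.14; genes share the libraries and are not independent replicates. The 17 genes that rose at 24 h had a median of 29.1 CPM, the 18 that fell 57.3 CPM and the 43 others 47.7 CPM. With the total length of exons the members' rho was -0.04 at 24 h.

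**Figure D4:**
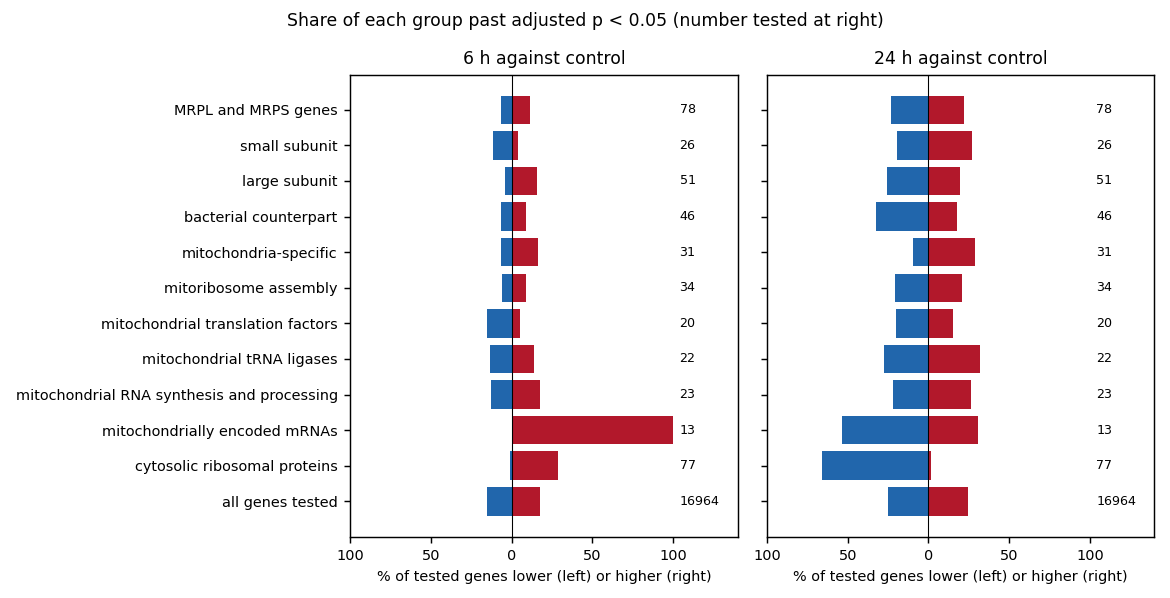
Share of each group of genes (horizontal axis, % of genes tested) that was lower (blue, to the left) or higher (red, to the right) at an edgeR adjusted p under 0.05, at 6 h and at 24 h against control, with the number of genes tested at the right. The 78 MRPL and MRPS genes had 11.5% higher and 6.41% lower at 6 h, less in each direction than all genes with TMM factors. With library size alone 2 of them were higher and 33 lower, beside 1669 and 6192 of all 16964 genes. With DESeq2 12.8% of them were called at 6 h, beside 13.8% of 32677 genes.

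Of the 5 other proteins of the mitochondrial ribosome, whose symbols follow another pattern (DAP3, AURKAIP1, PTCD3, CHCHD1 and GADD45GIP1), 4 passed at 24 h. None passed at 6 h with edgeR, DESeq2 or limma-voom, nor at an unadjusted p under 0.05. At 24 h DAP3 (-0.24), a GTP-binding small-subunit protein first described in cell death, and AURKAIP1 (-0.13) fell, and PTCD3 (0.21) and CHCHD1 (0.17) rose; all are small-subunit proteins. DAP3 stood at 103, 103 and 99.9 CPM in control and 86.3, 84.8 and 88.4 CPM at 24 h (edgeR adjusted p = 1.68e-05). GADD45GIP1 passed in neither comparison.

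The 34 assembly factors had 3 higher and 2 lower at 6 h, and 7 and 7 at 24 h. At 6 h NSUN4 (0.24), a methyltransferase of the small-subunit rRNA that also acts with MTERF4, C1QBP (0.19) and FASTKD2 (0.17) rose, and RMND1 (-0.30) and MIEF1 (-0.11) fell. At 24 h METTL17 (0.24), NDUFAB1 (0.23) and MTERF3 (0.22) led the rises, and GTPBP6 (-0.43), a factor that splits and assembles ribosomes, MPV17L2 (-0.29) and MIEF1 (-0.27) the falls. GTPBP6 stood at 39.1, 39.2 and 38.1 CPM in control, 38.0, 38.3 and 35.0 CPM at 6 h and 28.1, 28.5 and 29.6 CPM at 24 h, with only the 24 h libraries low (edgeR adjusted p = 1.72e-06).

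Of the 20 translation factors, SLIRP (0.17) rose and MTFMT (-0.23), C12orf65 (-0.22) and GUF1 (-0.18) fell at 6 h. TSFM (0.26), the exchange factor of the elongation factor TUFM, SLIRP (0.20) and TUFM (0.09) rose at 24 h, when 4 of the 20 fell. The 22 genes that charge mitochondrial transfer RNAs split 3 and 3 at 6 h and 7 and 6 at 24 h. TARS2 rose at 24 h (0.55) and MARS2 fell (-0.53); LARS2 (0.38) and KARS1 (0.33), whose product also serves the cytosol, led at 6 h.

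Of 23 genes for synthesis and processing of mitochondrial RNA and DNA, PNPT1, an exoribonuclease long known as inducible by type I interferon, stood apart. It went from 68.0, 68.8 and 66.2 CPM in control to 410, 403 and 412 CPM at 6 h and 134, 132 and 136 CPM at 24 h (2.59 ± 0.031 and 0.98 ± 0.031, edgeR adjusted p = 2.48e-18 and 7.62e-13). POLG, the replicative DNA polymerase, and TWNK, the helicase, were higher at 6 h (0.17 and 0.16) and lower at 24 h (-0.28 and -0.20). In all, 4 of these genes rose and 3 fell at 6 h, and 6 rose and 5 fell at 24 h.

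Among the 10 tested regulators of nuclear genes for mitochondrial proteins, 3 rose and 2 fell at 6 h and 2 rose and 5 fell at 24 h; PPARGC1A was not tested. MYC stood at 186, 188 and 189 CPM in control, 282, 284 and 285 CPM at 6 h and 129, 124 and 128 CPM at 24 h (0.60 and -0.56, edgeR adjusted p = 1.12e-10 and 2.60e-10). NRF1 stood at 22.2, 22.4 and 23.9 CPM in control, 23.3, 23.2 and 23.3 CPM at 6 h and 13.8, 13.2 and 14.5 CPM at 24 h, and only its 24 h libraries were low (-0.71, adjusted p = 4.76e-08). PPRC1 and GABPB1 were, as MYC was, higher at 6 h (0.22 and 0.33) and lower at 24 h (-0.48 and -0.32). ESRRA was lower at 6 h (-0.39), YY1 was lower at both times (-0.09 and -0.25), and PPARGC1B (0.39) and SP1 (0.27) rose at 24 h. GABPA did not pass (0.09 and -0.04). In the deposited normalized table the 24 h values of MYC (-0.124), NRF1 (-0.267) and PPRC1 (-0.0363) did not pass; relative to the median of all genes there they were -0.495, -0.638 and -0.407.

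The rRNA that these proteins package was lower at 24 h. MT-RNR2, the large-subunit rRNA, stood at 14412, 14527 and 14210 CPM in control, 16645, 15791 and 15815 CPM at 6 h and 9059, 8533 and 8083 CPM at 24 h. Its groups did not overlap, and the log2 fold change was 0.16 ± 0.031 at 6 h and -0.75 ± 0.031 at 24 h (edgeR adjusted p = 0.000705 and 1.89e-11). The 6 h call was lost under 2 other scalings: the value was 0.0214 with library size alone (edgeR adjusted p = 0.568) and 0.327 by limma on the deposited normalized values (adjusted p = 0.376). MT-RNR1, the small-subunit rRNA, stood at 2276, 2544 and 2885 CPM in control, 3553, 1950 and 2132 CPM at 6 h and 1682, 1441 and 1416 CPM at 24 h. Its 6 h libraries were spread on both sides of the controls, and its 24 h libraries were the lowest (-0.76 ± 0.160, adjusted p = 0.000993). In the deposited normalized table the 24 h values were -0.312 and -0.322 and did not pass (adjusted p = 0.179 and 0.115), where the median of all genes was 0.371. The labels do not say how rRNA was handled in the libraries.

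The 13 mitochondrially encoded messenger RNAs all rose at 6 h, by 0.11 to 0.26, and at 24 h 4 rose and 7 fell, from -0.30 (MT-CO3) to 0.38 (MT-ND3). With library size alone none passed the edgeR test at 6 h (1 at an unadjusted p under 0.05), where their median was 0.0186 and that of all genes -0.145. The 77 cytosolic ribosomal protein genes, set beside them by symbol, had 22 higher and 1 lower at 6 h and 1 higher and 51 lower at 24 h (median -0.149). With library size alone edgeR called 0 higher and 29 lower at 6 h (0 and 39 at an unadjusted p under 0.05) and 6 and 33 at 24 h. Of all 16964 genes it called 1669 higher and 6192 lower at 6 h, and 5500 and 3078 at 24 h. In the deposited normalized table limma called 0 in either direction at 6 h (3 and 0 at an unadjusted p under 0.05) and 21 higher and 0 lower at 24 h (30 and 0), with a median of 0.288 where that of all genes was 0.371. The difference between the cytosolic and the mitochondrial set was not tested.

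**Figure D5:**
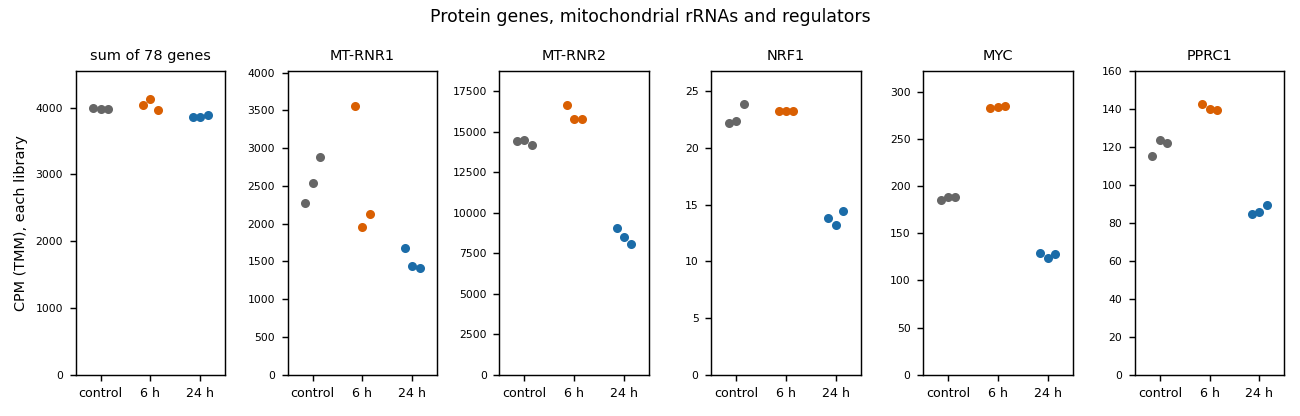
CPM with TMM factors (vertical axes, from 0, each with its own scale) in each of the 9 libraries for the sum of the 78 genes, the 2 mitochondrial rRNAs and the regulators NRF1, MYC and PPRC1. The sum stays between 3853 and 4126 CPM, whereas MT-RNR2 falls to 8083 to 9059 CPM at 24 h and MYC stands at 282 to 285 CPM at 6 h.

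Some counts of the members rest on reads that other genes could claim. By the deposited coordinates 36 of the 78 genes overlap another tested gene, 28 of them one with over 10% of their own CPM, and 42 overlap none. Among those 42 the calls were 6 higher and 1 lower at 6 h, 10 and 10 at 24 h, and 7 and 15 between the times. The table also holds 76 pseudogene copies of these genes; 10 reached 1 CPM, the highest being MRPL3P1 (15.2 CPM, beside 124 CPM for MRPL3) and MRPS36P1 (5.48 CPM, beside 17.6 CPM for MRPS36). MRPS31P5 (1.90 CPM) and MRPS31P4 (1.45 CPM) stood beside 12.7 CPM for MRPS31, so the values of MRPL3, MRPS36 and MRPS31 are uncertain.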

How the data were processed

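RNA of 9 SUIT2 libraries was isolated with a column kit as total RNA and sequenced on an Illumina instrument, per the labels' protocols. The submitters' processing notes name STAR 2.7.8a, Partek and hg38. How genes were counted, from which annotation release and whether by strand, is stated in none of the labels or notes used. One deposited table holds the authors' estimated counts per gene; as these need not be whole, although the planned test assumed counts, they were rounded here. A second deposited table holds a TMM-normalized signal. It was read as the counts plus 1e-04, times 1 multiplier per library, taken as the median ratio over the members. How far single genes depart from that multiplier was not recorded. The second table served as an alternative only.

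Groups came from the sample titles. The main test was edgeR's quasi-likelihood test (edgeR 4.0.16 with limma 3.58.1 under R 4.3.3), with TMM factors and 1 model over the 9 libraries, which leaves 6 residual degrees of freedom. Genes were kept by filterByExpr (minimum count 10, minimum total 15). P-values were adjusted by Benjamini-Hochberg over all 16964 genes tested and called under 0.05. A standard error is the size of the log2 fold change over the square root of F, and levels are CPM with TMM factors. The script was tested on simulated data with known changes in a small part of the genes. It recovered 14% of 1.1-fold changes at 6 h and 4% at 24 h. For 1.25-fold changes the shares were 48% and 42%, and for 1.5-fold changes 84% and 63.8%. A member that did not pass is therefore not shown to be unchanged.

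The members and gene lists were chosen with earlier results of these data known. Named members were the 6 largest called rises and falls in each comparison, the highest and lowest levels, the members next to the level limit and, from each list, up to 3 called genes a direction and comparison; all other members and the second-ranked list genes were named after their values were seen. Of the lists' genes all but PPARGC1A were tested, and MTRFR was matched as C12orf65. Coordinates are those of the deposited table on hg38. Against GENCODE 29 the start was the same for 64.1% of the tested protein-coding symbols shared, and the end was 1 base further for 64.2%. Of the 78 members 47 had the same start. Exon lengths came from GENCODE 29 and promoter windows from RefSeq (GRCh38.p14).

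Other settings tried were DESeq2 1.42.0 and limma-voom; median-of-ratios factors and library size alone; other low-count filters; a separate fit for each pair of groups; the replicate number as a block; omission of each library; limma on log2 of the deposited normalized values with a pseudocount of 1 or 0.1; a threshold of 0.01; and level limits of 1 and 10 CPM. Chosen after seeing the data were thinning to the smallest total, 15101664, and omission of members that overlap tested genes. Tables and plots used matplotlib 3.10.9, pandas 2.3.3 and numpy 2.4.6 under Python 3.11.15.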

Additional observations from a re-analysis of the deposited data

Results flagged for a closer look

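For 20 of the named genes the change at 24 h differed from the change at 6 h by the edgeR test of the difference itself, which equals the comparison of the 2 treated times. Of these, 12 had been named as the largest called changes in that same comparison, so their passing was fixed by the choice. Among all genes 57.2% were called in it, so the count of 20 is no separate support. The 24 h value was below the 6 h value in MRPL17 (a difference of -0.50 on the log2 scale), MRPL20 (-0.37), MRPL32 (-0.36), MRPL30 (-0.28), MRPL37 (-0.27), MRPL24 (-0.27), MRPL51 (-0.25), MRPS10 (-0.22), MRPS30 (-0.16), MRPL15 (-0.13), MRPS16 (-0.12) and MRPL40 (-0.11). It was above the 6 h value in MRPL34 (0.46), MRPS14 (0.42), MRPL49 (0.37), MRPL57 (0.30), MRPS9 (0.27), MRPS31 (0.24), MRPL46 (0.24) and MRPS18A (0.15). Of the 20, MRPL34, MRPS14, MRPL49, MRPL51, MRPL40, MRPL20 and MRPL37 overlap another tested gene with over 10% of their CPM. The report gives that gene for MRPL34, MRPS14, MRPL49, MRPL51 and MRPL40; for MRPL20 it is MRPL20-AS1 (15.8 CPM) and for MRPL37 SSBP3 (27.2 CPM), which shares 33 bases with it.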

How the results depend on the processing

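Counts are given as higher and lower, in the order 6 h against control, 24 h against control, 24 h against 6 h; with edgeR and TMM factors they were 9 and 5, 17 and 18, and 14 and 25. Library size alone gave 2 and 33, 29 and 9, and 57 and 3, and called 46.3%, 50.6% and 63.1% of all genes. Values of the deposited normalized table gave 1 higher and 0 lower, 49 and 0, and 13 and 0 with either pseudocount. In that table each library had its own multiplier, taken as a median over the members, and the median of all genes shifted. With a pseudocount of 1 the median of all genes was 0.371 at 24 h, with 8575 called higher and 321 lower. EdgeR with TMM factors called 4191 and 4284 of all genes there. The 49 calls are therefore not relative to the typical gene. Control replicate 2 and 6 h replicate 2 had the same multiplier, with totals of 19632741 and 23447549 estimated counts. The deposited table therefore did not bring these 2 libraries to a common total. How the multipliers were set was not tested. DESeq2 gave 11 lower at 24 h and 8 higher between the times. It called 12.8%, 32.1% and 35.9% of the members, beside 13.8%, 21.4% and 24.9% of 32677 genes, a number that includes low counts. Without the low-count filter 3 were lower at 6 h, and with a filter of 5 CPM 9. Without the filter 19.2%, 37.2% and 48.7% of the members were called, beside 17.5%, 26.2% and 30.4% of those 32677 genes. With a filter of 5 CPM the shares were 23.1%, 41% and 52.6%, beside 44%, 61.2% and 68.2% of all genes. At an adjusted p under 0.01 there were 5 and 3 at 6 h, 11 lower at 24 h and 7 higher between the times. That threshold called 22.8%, 38.6% and 46.3% of all genes. Among the 42 members that overlap no tested gene, which are fewer genes, there were 6 and 1, 10 and 10, and 7 and 15. Leaving out 1 library at a time gave 5 to 13 and 3 to 7 at 6 h, 13 to 17 and 12 to 22 at 24 h, and 9 to 15 and 21 to 30 between the times. The counts moved by more than 1.5 times without 6 h replicate 2 (5 higher at 6 h), without 6 h replicate 1 (3 lower at 6 h), and without 6 h replicate 3 or 24 h replicate 3 (9 higher between the times). Level limits of 1 and 10 CPM left the same 78 genes. Of the calls, 1 of 9 and 0 of 5 at 6 h, 12 of 17 and 0 of 18 at 24 h, and 7 of 14 and 0 of 25 between the times were kept in all 20 other settings; apart from library size alone and the deposited table, 5 and 3, 12 and 11, and 7 and 19 were kept.

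No pairing by replicate number was visible: deviations of libraries with the same number had correlations of -0.0588 to 0.0214. A pairing with a small effect could go unseen in this check. A fit with the replicate number as a block gave 7 and 4 at 6 h, 15 and 17 at 24 h, and 13 and 24 between the times.

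In the deposited normalized table (the value with a pseudocount of 1, then of 0.1 where it differs when rounded) the sign turned at 6 h for MRPS16 (0.011), MRPL49 (0.053) and MRPS27 (0.055). At 24 h it turned for MRPL32 (0.30 and 0.31), MRPS16 (0.16), MRPS27 (0.40), MRPL30 (0.059 and 0.060), MRPL51 (0.11), MRPL20 (0.19 and 0.20), MRPL15 (0.22), MRPL37 (0.26) and MRPL24 (0.26 and 0.27), and between the times for MRPS30 (0.12), MRPL40 (0.15), MRPS10 (0.051 and 0.052), MRPS16 (0.15), MRPL51 (0.028 and 0.029), MRPL15 (0.14) and MRPL24 (0.0077 and 0.0082). With library size alone it turned at 6 h for MRPL20 (-0.014) and MRPL37 (-0.040) and between the times for MRPS30 (0.060), MRPL40 (0.10), MRPS16 (0.10), MRPL15 (0.089) and MRPS6 (0.12). The median of all genes moved in both settings, and relative to it the 35 values of members named as the largest changes kept their sign. A factor for each library shifts all genes nearly alike, so this was largely fixed in advance.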
